A study of Mus musculus with 10 samples.

Results

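The interferon-inducible GTPases are proteins of the guanylate-binding protein (GBP), immunity-related GTPase (IRG) and Mx families, and 9 of their genes were followed in the mouse optic nerve head: Gbp2, Gbp3, Irgm1, Irgm2, Igtp, Ifi47, Iigp1, Mx1 and Mx2. They were taken as the probe sets whose annotation gives exactly one of these symbols, which was 11 of 22690 probe sets and 9 of 12393 genes, with 2 probe sets each for Gbp2 and Iigp1 and 1 for each other gene. The genes were chosen by their families and selected on values of these same arrays, on which interferon genes as a whole had been lower after pressure and uneven between pools, so their fold changes and their spread are given below as a description and were not tested as findings. Elevated pressure tissue came from right eyes of C57Bl/6 male mice aged 6 to 8 weeks, cannulated in the anterior chamber and held at 30 mmHg for 1 h, with collection 3 days later. Control tissue came from the left eyes of mice of the same experiment, which were not operated on, and the 10 mice used gave both groups, so the groups share animals. Every array held RNA from a pool of 2 nerve heads, and there were 5 arrays of elevated pressure and 5 of control. Cannulation, side of the body and pressure cannot be told apart in this design.

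Interferons bind receptors that signal through Janus kinases and STAT transcription factors, which act on target genes through a GAS element (the interferon gamma route, a STAT dimer) or an ISRE (the type I route, a STAT and IRF complex, and also IRF proteins alone). GBP and IRG proteins are large GTPases best known for gathering on the vacuoles of intracellular bacteria and parasites, and interferon gamma is a strong inducer of both families. Within the IRG family Irgm1, Irgm2 and Igtp encode regulators that sit on the cell's own membranes, and Iigp1 and Ifi47 encode effectors that load onto the foreign vacuole. Mx proteins are dynamin-like antiviral GTPases that follow type I and type III interferon. In C57BL/6 mice both Mx genes are known to be defective, and the RefSeq gene table lists Mx1 and Mx2 as transcribed pseudogenes, so their signal here is a transcript level and not a measure of Mx protein.

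The rule did not use the sequences of the start regions, which are shown first. The families were chosen as interferon-inducible, though, and interferons act through these elements, so the share of genes with a match is not independent of the choice. Genes of one family are also related in sequence. Promoter windows (250 bases before to 50 after an annotated start, RefSeq, build GRCm38.p6) were found for 6 of the 9 genes, in 7 windows. Printed below are the 80 bases before the start for the 5 genes with a match, 5′ to 3′ on the gene's own strand, where capitals mark an ISRE core (GAAANNGAAA on either strand, which reads TTTCNNTTTC on the other) or a GAS core (TTCNNNGAA).
Gbp2, chr3:142620583-142620662, plus strand: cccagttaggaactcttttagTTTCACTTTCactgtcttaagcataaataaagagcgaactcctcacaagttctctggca
Gbp3, chr3:142559964-142560043, plus strand: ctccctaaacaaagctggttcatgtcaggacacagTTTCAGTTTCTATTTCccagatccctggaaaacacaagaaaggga
Irgm1, chr11:48871421-48871500, minus strand: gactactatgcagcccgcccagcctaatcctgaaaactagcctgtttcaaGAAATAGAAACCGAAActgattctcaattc
Irgm2, chr11:58214897-58214976, plus strand: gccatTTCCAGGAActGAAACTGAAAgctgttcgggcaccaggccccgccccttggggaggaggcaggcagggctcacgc
Igtp, chr11:58199476-58199555, plus strand: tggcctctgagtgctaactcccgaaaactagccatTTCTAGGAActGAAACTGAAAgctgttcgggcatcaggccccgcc

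The ISRE core stood in a window of 5 of these 6 genes, where 3.99% of all 27025 genes with a window have it (3.44% of 32851 windows). Gbp2 has it once, from 59 to 50 bases before the start, and Ifi47 has no match in its window, which says nothing of elements elsewhere. Gbp3 and Irgm1 carry overlapping cores that share a GAAA, from 45 to 30 and from 30 to 15 bases before the start, so that the 16 letters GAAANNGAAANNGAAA are present. That longer form is found in 38 windows of the genome. Gbp3 has a further annotated start whose window holds neither core.

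Igtp and Irgm2, next to each other on chromosome 11, share a composite of both elements. In Igtp a GAS core lies from 45 to 37 and an ISRE core from 34 to 25 bases before the start, and in Irgm2 they lie from 75 to 67 and from 64 to 55. In both, 2 bases separate the cores, and over 40 bases from the first base of the GAS core the genes are identical at 38. The GAS core alone occurs in 9.55% of genes with a window and in 2 of the 6 GTPase genes, both within this composite. The composite (TTCNNNGAANNGAAANNGAAA, spelled out after these promoters had been read) was present in 5 of 32851 windows, those of Igtp, Irgm2, Tgtp1, Tgtp2 and Gm12185. All 5 are on chromosome 11, and Tgtp1 and Tgtp2 encode further IRG proteins. A match is a stretch of letters and was not tested for binding in this tissue.

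**Figure D1:**
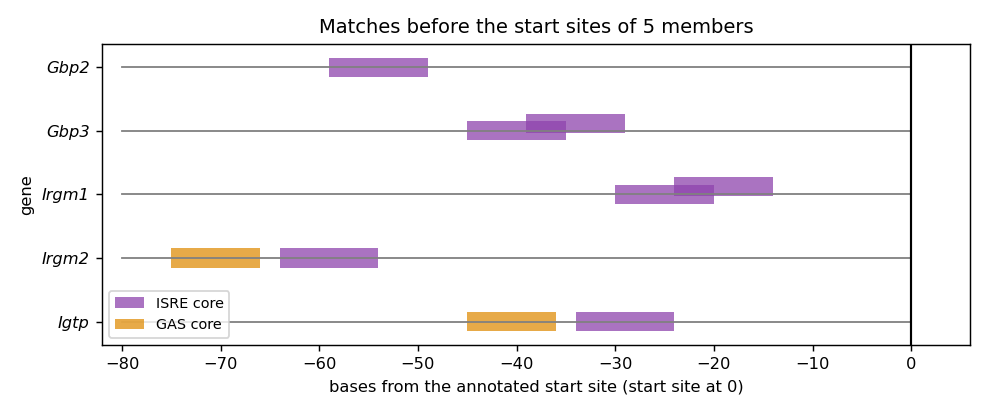
Positions of the ISRE core (purple) and GAS core (orange) in the 80 bases before the annotated start of 5 GTPase genes, with the start at 0 on the horizontal axis in bases. Gbp3 and Irgm1 show overlapping ISRE cores, and Igtp and Irgm2 show a GAS core 2 bases ahead of an ISRE core at different distances from the start.

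The deposited values are linear probe set signals from 1-colour arrays, and how they were summarised is not given in the sources used here. Array medians lay between 414 and 475. The most unusual array was elevated pressure replicate 1, which correlated with the 9 others at 0.974 on average, against 0.986 or more for the rest. Its Gapdh control signal at the 3′ end was 2.07 times that at the 5′ end, a measure of RNA quality, against 1.53 to 1.73 times elsewhere. The same ratio of the beta-actin control did not set it apart. It was 2.10 there and 2.13 in elevated pressure replicate 4, against 1.65 to 1.94 elsewhere. For single genes in the fit, log2 fold changes that moved by over 1.5 times without elevated pressure replicate 1 are given with and without it. Medians of gene lists are not always given both ways. In such bulk pools fewer cells of a type and less RNA per cell cannot be told apart. Folds are differences of log2(signal + 16), elevated pressure minus control, which understates changes of dim genes. Genes are said to be called where limma, fitted across all 12393, gave a Benjamini-Hochberg adjusted p under 0.05.

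All 9 GTPase genes had a log2 fold change below 0, with a median of -0.19, where 52.7% of all genes were below 0 and the median of all genes was -0.0094. None of the 9 was called, none had an unadjusted limma p under 0.05, and the adjusted p of the 9 ran from 0.849 to 0.977. Over all genes 0 were called (0.0% of 12393) and 492 had an unadjusted p under 0.05 (3.97%). In none of the 9 did the groups keep apart, against 0.629% of all genes whose groups did not overlap in either direction and 0.226% whose elevated pressure arrays all lay below the control arrays. The rule used this contrast, and nothing is read from these shares. For every one of the 9 the range of signals within either group was wider than the distance between the group means, and the values follow gene by gene.

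**Figure D2:**
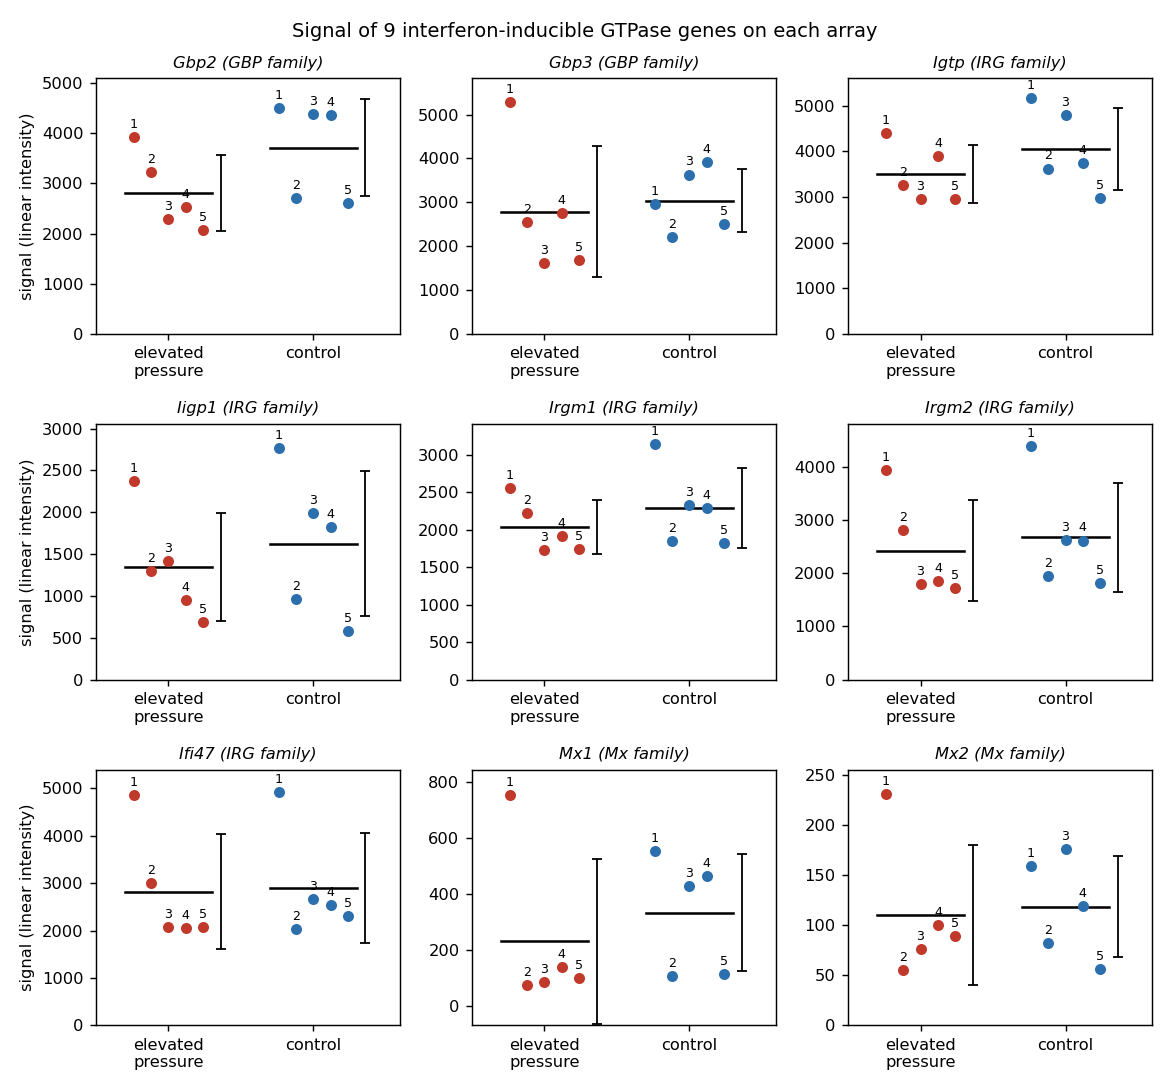
Signal (linear intensity, vertical axis) of each GTPase gene on every array, elevated pressure in red on the left and control in blue on the right of each panel, numbered by replicate. Horizontal lines are group means and the bars beside them the SD of 5 arrays. Elevated pressure replicate 1 and control replicate 1 are among the 4 highest arrays in all 9 panels.

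Gbp2 and Gbp3 encode guanylate-binding proteins, whose coats on bacteria and vacuoles open them to the host's defences, and their genes lie in one cluster on chromosome 3 with Gbp2b between them. The signal of Gbp2 was 3932, 3227, 2292, 2526 and 2077 in elevated pressure replicates 1 to 5, against 4499.5, 2711, 4375, 4366 and 2615 in control replicates 1 to 5. All 5 elevated pressure arrays were below the control median, while control replicates 2 and 5 lay inside the elevated pressure range. Group means were 2811 ± 761 in elevated pressure and 3713 ± 961 in control tissue (SD, n = 5 each), a log2 fold change of -0.40 (standard error 0.22). The other probe set of Gbp2, whose x suffix marks probes shared with other sequences, gave -0.24. In it elevated pressure replicate 1 was the highest array, at 4244.

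Gbp3 gave 5294, 2555, 1619, 2745 and 1690.4 in elevated pressure replicates 1 to 5, against 2958, 2204, 3633, 3909.6 and 2494 in control replicates 1 to 5. Elevated pressure replicate 1 was the highest array, and replicates 3 and 5 of the same group were the lowest. The log2 fold change was -0.24 (standard error 0.30), and it stood at -0.50 without elevated pressure replicate 1, -0.077 without replicate 3 and -0.092 without replicate 5 of that group, and -0.14 without control replicate 4.

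Among the regulators of the IRG family, Irgm1, which in mice is needed for control of mycobacteria and protects haematopoietic cells, measured 2564, 2231, 1737, 1919 and 1746 in elevated pressure replicates 1 to 5, against 3145, 1854, 2328, 2292 and 1822 in control replicates 1 to 5. Control replicate 1 was highest and elevated pressure replicates 3 and 5 lowest, within a narrow 1.81-fold span. Its log2 fold change was -0.15 (standard error 0.16), with -0.031 when control replicate 1 was left out and -0.24 when elevated pressure replicate 1 was. Irgm2, a regulator linked to Golgi membranes, measured 3939.7, 2819, 1797, 1860.2 and 1719 in elevated pressure replicates 1 to 5, against 4384, 1944, 2633, 2615 and 1819 in control replicates 1 to 5. Replicate 1 of both groups exceeded every other array, and elevated pressure replicate 2 came next. Group means were 2427 ± 957 in elevated pressure and 2679 ± 1024 in control tissue (SD, n = 5 each), with a log2 fold change of -0.15 (standard error 0.28). Without elevated pressure replicate 1 it was -0.34 and without control replicate 1 it was 0.048, a change of sign.

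Igtp encodes Irgm3, a regulator of the endoplasmic reticulum and lipid droplets. Its signal was 4408, 3252, 2963, 3893 and 2963 in elevated pressure replicates 1 to 5, against 5165, 3623, 4799.7, 3734 and 2979 in control replicates 1 to 5, a 1.74-fold span that was the narrowest of the 9. Control replicates 1 and 3 were highest, and elevated pressure replicates 3 and 5 and control replicate 5 were almost level at the bottom. The log2 fold change was -0.20 (standard error 0.17), between -0.31 and -0.11 when 1 array was left out.

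Of the IRG effectors, Ifi47 had 4864, 3007, 2074, 2051 and 2084 in elevated pressure replicates 1 to 5, against 4913, 2023, 2666, 2539 and 2303 in control replicates 1 to 5. Replicate 1 of each group was far above the other 8 arrays, and the group means, 2816 ± 1215 in elevated pressure and 2889 ± 1158 in control tissue (SD, n = 5 each), were nearly equal. The log2 fold change of -0.051 (standard error 0.29) had no stable sign, being 0.16 without control replicate 1 but -0.27 when elevated pressure replicate 1 was left out. Iigp1, the founding effector that docks on the Toxoplasma vacuole, measured 2374, 1298, 1416, 945 and 693 in elevated pressure replicates 1 to 5, against 2769, 961, 1988, 1822 and 577 in control replicates 1 to 5. Control replicates held both the highest and the lowest array of the gene, a 4.79-fold span among unoperated pools. Its log2 fold change was -0.19 (standard error 0.43), and its sign turned to 0.050 without control replicate 1 and to 0.014 when elevated pressure replicate 5 was left out. It was -0.42 without elevated pressure replicate 1 but -0.51 without control replicate 5. Its other probe set gave -0.45. Elevated pressure replicate 1 and control replicates 1, 3 and 4 were the highest arrays in both.

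Mx1 spanned the widest range of the 9 genes, 9.99-fold over the 10 arrays. Its signal was 753, 75.3, 84.5, 139.6 and 100.2 in elevated pressure replicates 1 to 5, against 552, 109, 428, 462 and 114 in control replicates 1 to 5. The arrays fell on either side of a gap, with elevated pressure replicate 1 and control replicates 1, 3 and 4 at 428 or more and the other 6 at 139.6 or less. The log2 fold change was -0.79 (standard error 0.64), -1.34 without elevated pressure replicate 1 and -0.54 without control replicate 1. Mx2 was dim, with 231, 54.9, 76.4, 100.5 and 89.1 in elevated pressure replicates 1 to 5, against 159, 81.9, 176, 119.7 and 56.4 in control replicates 1 to 5. The same 4 arrays were highest and elevated pressure replicate 2 was lowest for both Mx genes. The log2 fold change of Mx2 was -0.14 (standard error 0.35). It changed sign, to 0.032 without elevated pressure replicate 2 and to 0.0085 without control replicate 3. With elevated pressure replicate 1 left out it was -0.42, and with control replicate 1 left out -0.024.

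**Figure D3:**
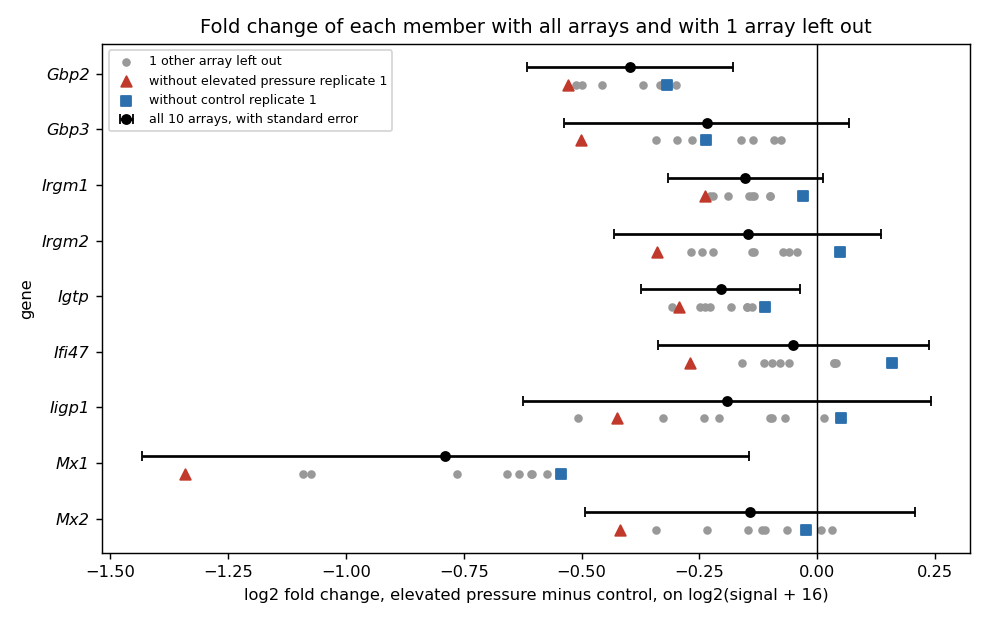
Log2 fold change of each GTPase gene (horizontal axis, elevated pressure minus control) with all 10 arrays (black, with standard error) and with 1 array left out (triangles without elevated pressure replicate 1, squares without control replicate 1, grey for the other arrays). Without control replicate 1, the values of Irgm2, Ifi47 and Iigp1 lie above 0.

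The GTPase score of an array, found by subtracting each gene's average log2 value over the 10 arrays and averaging the 9 genes, gathers this pattern. It was 0.78, -0.21, -0.45, -0.24 and -0.53 in elevated pressure replicates 1 to 5, against 0.71, -0.34, 0.42, 0.32 and -0.47 in control replicates 1 to 5. The 4 high arrays were thus 1 of 5 with elevated pressure and 3 of 5 controls. The group means were -0.13 ± 0.53 in elevated pressure and 0.13 ± 0.51 in control tissue (SD, n = 5 each), a difference of -0.26 that is smaller than either SD. Elevated pressure replicate 1 and control replicate 1 were both among the 4 highest arrays for all 9 genes, and for 6 of the 9 the set was exactly elevated pressure replicate 1 with control replicates 1, 3 and 4. Without elevated pressure replicate 1 the median log2 fold change of the 9 genes was -0.42, and without control replicate 1 it was -0.031, with 6 of 9 below 0. Within-group SD on the log2 scale placed 6 of the 9 above the 90th percentile of all genes, the lowest being Irgm1 at percentile 69.6 and the highest Mx1 at 99.7.

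Over 10 arrays the 36 pairs of genes had Pearson correlations from 0.63 to 0.97 with a median of 0.79, as a description of arrays that share tissue and hybridisation. The score puts 4 arrays above and 6 below a gap, so these values describe that split together with any finer order. Leaving out the 2 arrays farthest from the median score, which were replicate 1 of both groups, the range over 8 arrays was 0.055 to 0.96. Within the 6 arrays below the gap it was -0.79 to 0.96 with a median of 0.36, but those arrays were picked by the score of the same genes, which narrows the range of signals and by itself lowers a correlation.

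Within those 6 arrays the correlation was 0.96 for Irgm1 with Irgm2, 0.91 for Irgm2 with Ifi47, 0.86 for Irgm1 with Ifi47 and 0.89 for Gbp2 with Irgm1. Elevated pressure replicate 2 stood apart there, at 0.22 for Irgm2, 0.16 for Ifi47 and 0.069 for Irgm1 relative to each gene's mean. The other low arrays ran from -0.49 to -0.31 for Irgm2, -0.41 to -0.22 for Ifi47 and -0.29 to -0.15 for Irgm1. The values with Ifi47 thus rest largely on that 1 array. Igtp and Irgm2, neighbours that share a stretch identical at 38 of 40 bases, stood at 0.77 over 10 arrays and 0.15 over the 6. Whether a shared stretch before the start goes with shared levels was not tested. Mx1 and Mx2 had 0.92 over 10 arrays and 0.57 over the 6. The lowest value over the 6 was -0.79, for Ifi47 with Mx2.

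Elevated pressure replicate 2 had the 9 genes on either side of their means, within families too. Relative to each gene's average over the 10 arrays, the log2 value there was 0.22 for Irgm2, 0.16 for Ifi47, 0.069 for Irgm1 and 0.039 for Gbp2. It was -0.025 for Iigp1, -0.099 for Gbp3, -0.19 for Igtp, -0.76 for Mx2 and -1.26 for Mx1, both Mx genes being at their lowest. So the IRG genes were divided there, with Irgm2 and Ifi47 the third highest of 10 arrays and Igtp below its mean. Genes tied to interferon gamma were divided on that array as well. Cxcl9, a chemokine that depends on interferon gamma and was singled out with Gbp2b after the values were seen, reached 533, against 14.3 to 45.6 on the other elevated pressure arrays and 13.3 to 138 in controls. Gbp2b, a further guanylate-binding protein gene, was at 109, against 9.06 to 36.02 on the rest of its group and 10.4 to 29.3 in controls. Cxcl10, a relative of Cxcl9, measured 1617, lower than on every array but elevated pressure replicate 5, and the score of the other interferon gamma response genes was 0.017, below those of elevated pressure replicate 1 and control replicates 1, 3 and 4. The score of T and NK cell markers was also highest on that array, at 0.25 against -0.21 to 0.15 elsewhere, and its part in these values was not tested. All of these are the values of 1 pool of 2 nerve heads.

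Over the 10 arrays, Usp18, Oas1a, Tap1, Slfn8, Gm9706, Ifih1, Dhx58, Rtp4, Nmi and Psmb8 were the 10 genes outside the set with the highest Pearson correlation with the GTPase score, of 12384 ranked, with r from 0.93 to 0.97 and Spearman's rho from 0.67 to 0.92. Over the 8 arrays without replicate 1 of both groups their r ran from 0.83 to 0.98, and over the 6 low arrays from -0.57 to 0.98. A ranking over those 8 arrays shares 4 of these 10 genes, so most of the names depend on replicate 1 of both groups. Several are well-known interferon-induced genes. Usp18, which removes ISG15 from proteins and damps the type I receptor, had 5237, 1589, 1761, 2054 and 1657 in elevated pressure replicates 1 to 5, against 5972, 2022, 4012, 3287 and 1598 in control replicates 1 to 5, with the same 4 arrays on top. Oas1a makes the short oligoadenylates that activate RNase L, Ifih1 and Dhx58 encode a sensor of double-stranded RNA and its relative, and Tap1 and Psmb8 belong to class I antigen processing. Of these 10, 6 have a promoter window and 3 of those hold the ISRE core, namely Oas1a, Slfn8 and Ifih1. More widely, 8 of the 50 genes outside the set with a window and an r above 0.8 hold it (16%), against 375 of all 9881 measured ones. The median r with the score was 0.0015 over those 375 and -0.042 over all 9881, and the median log2 fold change was -0.031 and -0.0094.

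**Figure D4:**
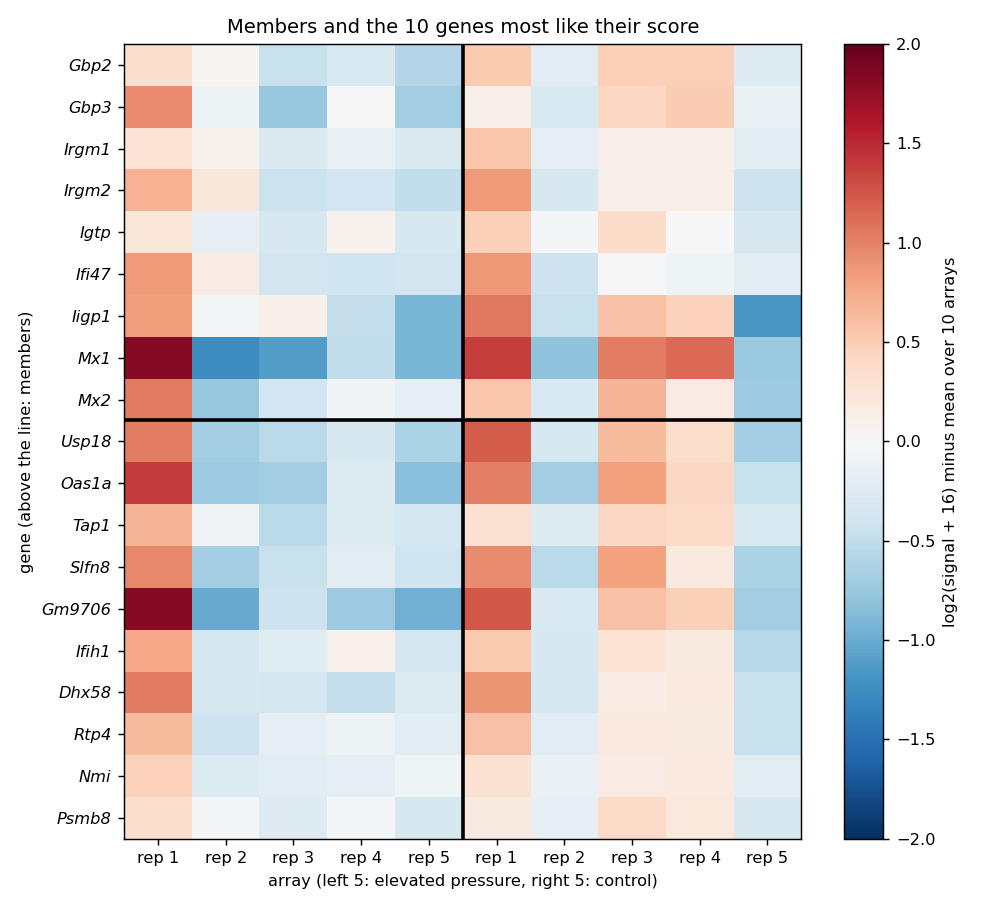
Log2(signal + 16) minus the gene's mean over 10 arrays (colour, red above and blue below the mean) for the 9 GTPase genes above the line and the 10 genes most like their score below it. Columns are the 5 elevated pressure arrays, then the 5 control arrays. Red recurs for most genes in elevated pressure replicate 1 and control replicates 1, 3 and 4, and elevated pressure replicate 2 is pale red for Irgm2 and Ifi47 but blue for both Mx genes.

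Other members of the GTPase families had probe sets of 1 gene or probe sets shared between genes, which were outside the fit. The shared probe set of Tgtp1 and Tgtp2 gave 0.042. It was highest in replicate 1 of both groups, at 8438 in elevated pressure and 8738 in control tissue, and its r with the GTPase score was 0.81. Gm12185, which has the same composite and a probe set of its own, had a log2 fold change of 0.074. Its r with the GTPase score was 0.19. The shared probe set of Gbp8 and Gbp4 gave 0.093. From probe sets of 1 gene the log2 fold change was -0.32 for Gbp6, -0.31 for Gbp7, -0.30 for Gbp8 and 0.45 for the dim Gbp2b. With 1 array fewer Gbp6 lay between -0.59 (elevated pressure replicate 1 left out) and -0.13 (elevated pressure replicate 5 left out) and Gbp7 lay between -0.44 (control replicate 5 left out) and -0.19 (control replicate 1 left out). In the same way Gbp8 lay between -0.39 (elevated pressure replicate 4 left out) and -0.16 (control replicate 3 left out) and Gbp2b lay between 0.10 (elevated pressure replicate 2 left out) and 0.68 (elevated pressure replicate 4 left out). On elevated pressure arrays Gbp6 measured 3835, 1911, 1624, 1473 and 1063, against 3106, 1891, 2536, 2299 and 1668 on control arrays, each in the order of replicates 1 to 5, so that replicate 1 was again the highest of both groups. Of 10 relatives with a probe set of 1 gene, dynamins and atlastins included, 6 were below 0 (median -0.052) and 0 were called in either direction.

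Upstream of these genes, transcripts of the interferons themselves were near the floor of the table. Ifng, the gene of interferon gamma, measured 9.94 to 14.3 in elevated pressure and 4.44 to 19.5 in control tissue, and Ifnb1, the gene of interferon beta, 8.46 to 38.7 in elevated pressure and 17.4 to 42.9 in control tissue. No detection calls were used, so whether these lie above background is not known. Of 14 measured interferon and inducing cytokine genes, 8 were below 0 and 0 were called. The receptor chains Ifnar1, Ifnar2, Ifngr1 and Ifngr2 had log2 fold changes of -0.094, -0.041, -0.010 and -0.25. Ifngr2 was -0.026 without elevated pressure replicate 1, where it measured 347 against 575 to 903 on the other 4 elevated pressure arrays and 658 to 968 in controls. The kinase genes Jak1, Jak2 and Tyk2 stood at -0.36, -0.15 and 0.016, and Jak1 at -0.22 without elevated pressure replicate 1. Without it the values were -0.0014 for Ifnar2, 0.0035 for Ifngr1 and 0.033 for Tyk2. Other probe sets of Jak1 ranged from -0.24 to 0.27.

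The transcription factor genes had values of both signs. Irf7, Irf9 and Stat2, parts of the type I response, had log2 fold changes of -0.61, -0.24 and -0.32. Irf1, on which many GBP and IRG genes depend, stood at 0.19 and its relative Irf8 at 0.055, or 0.099 without elevated pressure replicate 1. With 1 array fewer Irf7 lay between -0.87 (elevated pressure replicate 4 left out) and -0.36 (elevated pressure replicate 3 left out), Irf9 lay between -0.33 (control replicate 5 left out) and -0.098 (control replicate 1 left out) and Stat2 lay between -0.45 (elevated pressure replicate 1 left out) and -0.12 (control replicate 1 left out). The feedback inhibitors Usp18 and Socs1 stood at -0.47 and 0.22, and Usp18 lay between -0.78 (elevated pressure replicate 1 left out) and -0.22 (control replicate 1 left out). Of 24 measured receptor and signalling genes, 14 were below 0 (median -0.068), with 0 called lower and 0 called higher. Elevated pressure replicate 1, the highest array of the GTPase score, was not high for all of them: Irf1 measured 1014 there, the lowest of its group. The standard errors of the pathway genes named here ran from 0.088 (Jak2) to 0.76 (Cxcl9).

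Among other interferon targets, antiviral effectors lay below 0 in 33 of 36 measured genes (median -0.24), and 0 were called. The count was 35 of 36 with a median of -0.38 without elevated pressure replicate 1 and 26 of 36 with a median of -0.12 without control replicate 1. Ifit1, which binds viral RNA, stood at -0.25, or -0.41 without elevated pressure replicate 1, and Ifit1 lay between -0.42 (control replicate 5 left out) and -0.082 (control replicate 1 left out). Genes better known from the interferon gamma response were below 0 in 13 of 21 (median -0.054), with 0 called. Among them Cxcl10 stood at -0.89, Psmb8 at -0.12 and Cxcl9 at 0.50, the last turning to -0.23 without elevated pressure replicate 2. With elevated pressure replicate 1 left out the values were -0.21 for Psmb8 and 0.81 for Cxcl9. The machinery that GBP and IRG proteins work with, the autophagy conjugation genes and the inflammasome caspase gene Casp4, showed 9 of 16 below 0 (median -0.022) and 0 called. Atg5, Atg7 and Atg16l1 had log2 fold changes of 0.080, -0.13 and 0.13, and Casp4 0.13. Without elevated pressure replicate 1 they were -0.0067 for Atg5, -0.051 for Atg7 and 0.081 for Casp4. Other probe sets of Atg5 ranged from -0.48 to 0.19, and both others of Atg7 were above 0. For the other lists the counts below 0 without elevated pressure replicate 1 were 6 of 10 with a median of -0.027 for relatives, 8 of 14 with a median of -0.021 for ligands, 15 of 24 with a median of -0.014 for receptors and signalling, 14 of 21 with a median of -0.090 for the gamma response and 9 of 16 with a median of -0.022 for partners.

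**Figure D5:**
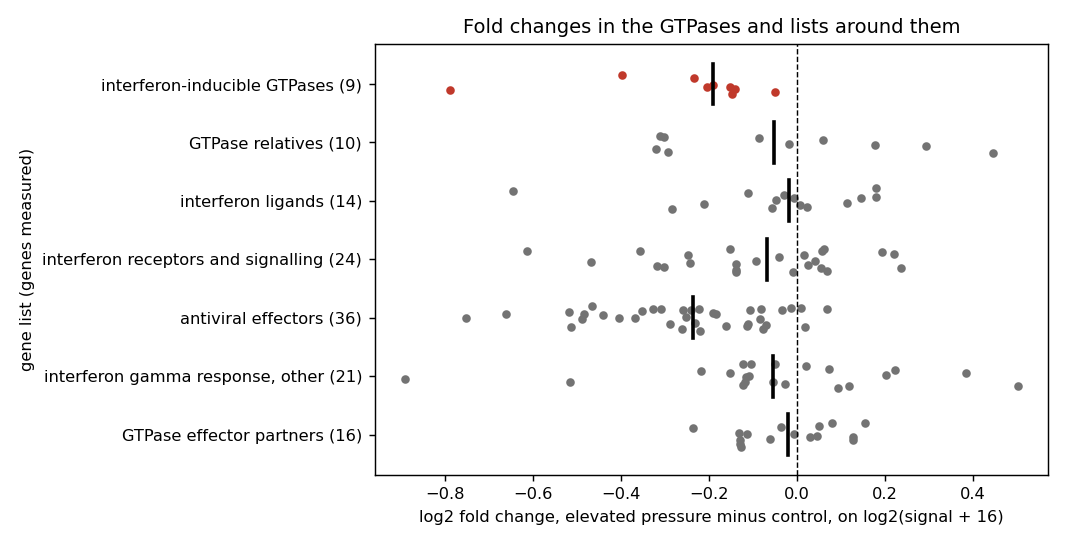
Log2 fold change of each measured gene (points, horizontal axis, elevated pressure minus control) in the 9 GTPase genes (red) and in 6 lists of genes around them (grey), with the median of each list as a black bar. The GTPase genes and the antiviral effectors have medians of -0.19 and -0.24, and the other 5 medians lie between -0.068 and -0.019.

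Immune cells can carry these transcripts at high levels, and their markers are set beside the GTPase score. The score of 22 microglia and macrophage markers, of 25 on the list, ran from -0.23 to 0.11 in elevated pressure and -0.093 to 0.19 in control arrays, with a summed signal of 62063 to 73006 in elevated pressure and 63490.4 to 75827 in control arrays. It was lowest, at -0.23, in elevated pressure replicate 1, where the GTPase score was highest. On the other arrays with a high GTPase score, control replicates 1, 3 and 4, it was 0.12, 0.19 and 0.031, with 0.19 the highest of all arrays. T and NK cell markers (18 of 22 measured) summed to 1525 to 2094 in elevated pressure and 1433 to 1967 in control arrays. Their score was 0.0039 in elevated pressure replicate 1 and 0.12, -0.16 and -0.21 in control replicates 1, 3 and 4. The NK receptor gene Ncr1 measured 3.34 to 11.9 in elevated pressure and 1.08 to 11.4 in control tissue, near the bottom of the table. Cd3e and Nkg7 were brighter. Cd3e measured 152 to 345 in elevated pressure and 129 to 279 in control tissue. Nkg7 measured 93.4 to 259 in elevated pressure and 53.3 to 231 in control tissue. Neutrophil markers (11 of 13 measured) had a score of 0.39 in elevated pressure replicate 1 and 0.51, -0.29 and 0.36 in control replicates 1, 3 and 4, and 0.43 in elevated pressure replicate 5, where the GTPase score was lowest. Their summed signal was 861 to 4603 in elevated pressure and 752 to 6193 in control arrays.

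Markers of the tissue itself also differed between pools. The score of 17 oligodendrocyte and myelin markers was -0.998 in elevated pressure replicate 1, against -0.29 to 0.50 on the other 9 arrays, and their summed signal was 55359 to 96855 in elevated pressure and 76147 to 104723 in control arrays. Astrocyte markers (19 of 21 measured), abundant in a nerve head, summed to 113598 to 124900.3 in elevated pressure and 115805 to 127188 in control arrays. Pigment cell and retinal pigment epithelium markers had their highest score, 1.102, in control replicate 1, with -0.34 to 0.51 in elevated pressure and -0.66 to 1.102 in control arrays, and summed to 31491 to 48314 in elevated pressure and 26924 to 63438 in control arrays. Photoreceptor markers ran from -0.48 to 0.96 in elevated pressure and -0.83 to 0.88 in control arrays, endothelial markers from -0.24 to 0.34 in elevated pressure and -0.36 to 0.33 in control arrays, and skeletal muscle markers from -0.027 to 0.14 in elevated pressure and -0.14 to -0.011 in control arrays. Log2 fold changes were below 0, with the list's median in parentheses, for 15 of 22 microglia and macrophage (-0.057), 9 of 18 T and NK cell (0.0060), 4 of 11 neutrophil (0.033), 8 of 21 endothelial (0.033) and 13 of 19 astrocyte (-0.041) marker genes. The same count was 17 of 17 for oligodendrocytes and myelin (-0.31), 5 of 24 for photoreceptors (0.22), 5 of 15 for pigment cells and epithelium (0.031) and 5 of 19 for skeletal muscle (0.082), and 0 marker genes were called. Without elevated pressure replicate 1 the counts were 16 of 17 with a median of -0.069 for myelin, 7 of 11 with a median of -0.058 for neutrophils and 4 of 21 with a median of 0.13 for endothelium, and without control replicate 1 1 of 15 with a median of 0.26 for pigment cells. The part of tissue content and RNA quality in the GTPase pattern was not tested. With the Gapdh ratio as a covariate the median log2 fold change of the 9 genes was -0.51, and 0 genes were called. That ratio was 2.07 in elevated pressure replicate 1 and 1.53 to 1.73 elsewhere, so the covariate largely marks that 1 array. Leaving that array out gave a median of -0.42. The covariate cannot separate RNA quality from other features of that array.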

How the data were processed

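Per the labels' protocols, total RNA of pooled optic nerve heads (30 ng, RNA integrity number above 9.1) was amplified, labelled with biotin and hybridised, 1 array per pool. Linear intensity values, 1 for each probe set and array, are what the authors deposited, from 0.69 to 20168, and how they were summarised and normalized is not given in the sources used here. Array medians differ, so the number of arrays and an unknown scaling limit precision.

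Of 22690 probe sets 64 were controls, 20380 had 1 symbol, 691 several and 1555 none. Symbols come from the platform annotation, and the Entrez identifiers of 12369 of 12393 genes were in the RefSeq table. The brightest probe set by mean log2(signal + 16) stands for a gene, and no dim gene was left out. Elevated pressure was set against control by lmFit and eBayes of limma 3.58.1 in R 4.3.3, two-sided and without covariates, and p-values were adjusted by Benjamini-Hochberg over all genes. The test was checked on simulated data in which genes varied independently and arrays shared no animals, unlike the data here. The pools are called biological replicates. The 10 mice gave both groups, but the labels do not say whether equal replicate numbers share mice.

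The 9 genes, the 15 lists around them and the alternatives were chosen with earlier results of these data known. Named genes are all 9, relatives named for the GBP and IRG families, fixed genes of each list, and the 10 genes with the highest correlation with the score. Promoter windows are RefSeq, build GRCm38.p6, searched on both strands. Other steps ran in Python 3.11.15 with SciPy 1.17.1, pandas 2.3.3 and NumPy 2.4.6, and plots in Matplotlib 3.10.9. Alternatives were other normalizations, pseudocounts, probe set rules, a dim-gene filter, variance models, array weights, a replicate block, a Gapdh covariate, and leaving out arrays.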

Additional observations from a re-analysis of the deposited data

Results flagged for a closer look

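Single arrays lay far from the rest of their group in 8 of 88 groups of 5 checked, by the gap to the nearest array as a share of the group's range, with a limit of 0.71 (Dixon's test at 95%). Chance alone gives about 4.4 such groups if groups are independent and not chosen by their spread. The genes here vary together, and the rule used the spread between pools. The count is therefore a description, and nothing is read from it. In elevated pressure replicate 1 the share was 0.750 for Mx1, 0.753 for the GTPase score and 0.785 for Usp18, all 3 higher than their group. In elevated pressure replicate 2 it was 0.755 for Cxcl9, higher than its group, and 0.888 for Ifng, lower than its group at a signal of 9.94, near the bottom of the table. In control replicate 3 Cxcl9 was higher than its group, with a share of 0.718. Ifngr1 was higher in elevated pressure replicate 3 (0.799) and lower in control replicate 3 (0.792) than the rest of each group.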

How the results depend on the processing

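Under all 26 alternatives of the fit 0 genes were called by limma, with a lowest adjusted p of 0.481 and 304 to 1044 genes at an unadjusted p under 0.05, against 492 with all arrays. All 9 GTPase genes, or all 11 probe sets, stayed below 0 under every normalization, pseudocount, probe set rule, array weighting and covariate tried. The variance model, dim-gene filter and replicate block leave these fold changes unaltered by design, so they say nothing of the sign. The rule had used this contrast. Leaving out arrays, 6 to 9 were below 0 and their median ran from -0.42 to -0.031. Array weights gave a median of -0.33 and Mx1 at -1.13, and the Gapdh ratio as a covariate gave Mx1 at -1.69. That covariate largely marks elevated pressure replicate 1. Values that changed sign when arrays were left out were Iigp1 from -0.51 to 0.050, Irgm2 from -0.34 to 0.048, Ifi47 from -0.27 to 0.16, Mx2 from -0.42 to 0.086, Ifnar2 from -0.12 to 0.042, Ifngr1 from -0.14 to 0.037, Tyk2 from -0.054 to 0.090, Atg5 from -0.011 to 0.23, Cxcl9 from -0.43 to 0.96 and Psmb8 from -0.21 to 0.013, and the cause was not tested. Ifngr1 stood at 0.028 after quantile normalization, 0.016 with equal medians and 0.021 with the covariate, which also gave Ifngr2 at 0.080 and Atg5 at -0.051. The mean over probe sets gave Atg5 at -0.070 and Atg7 at 0.030. Same-numbered arrays had correlations of deviations from -0.076 to 0.18, and 4 of 10 arrays correlated best with their own number. The groups share mice, but neither the labels nor these values settle whether equal numbers do. With the replicate block 0 genes were called, and the median was -0.19, which a balanced block cannot change. Of the 10 genes most like the score, 7 were shared with group means removed, 9 after quantile normalization, 9 with every probe set in the score and 4 without replicate 1 of both groups. Depth is not defined for arrays, and whether dim probe sets such as Ifng, Ifnb1 and Gbp2b exceed background is not known.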
